A study of Homo sapiens with 8 samples.

Results

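Calcium that enters the cytosol binds calmodulin, and calcium-loaded calmodulin switches on a family of serine/threonine kinases. The library used to screen for regulators of PRMT5, the main symmetric arginine methyltransferase, held 112 sgRNAs against 16 of these kinases and their relatives, out of 10429 sgRNAs in all. The members were chosen by gene name alone, as every sgRNA against a calmodulin-dependent kinase (names starting with CAMK), DAPK1 to DAPK3, STK17, DCLK or a phosphorylase kinase subunit. No sgRNA against PNCK or CASK, which were sought as well, was among those analysed here. Each of the 16 genes had 7 sgRNAs, and the whole library had 9929 sgRNAs against 1420 genes plus 500 control sgRNAs.

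The screen was done in chemo-resistant (platinum-resistant) COV362, an established human high-grade serous ovarian cancer cell line, whose cells expressed Cas9 and were otherwise labelled wild type. After transduction and selection, the cells were split into 4 replicates, kept in culture, stained for PRMT5 inside the cell and sorted. The sort gave 4 libraries of the cells with the most PRMT5 (PRMT5hi) and 4 of the cells with the least (PRMT5lo), both from the same transduced cells. No library from before the culture or from unsorted cells was analysed here. An sgRNA that raises PRMT5 when its target is cut should be more abundant in PRMT5hi cells, and one that lowers PRMT5 in PRMT5lo cells. The deposited values are the authors' means over the 4 libraries of a population, so no level in a single library can be shown. They are given in CPM, read counts scaled to a common total of mapped reads, and the log2 ratio is that of CPM + 1 in PRMT5lo over CPM + 1 in PRMT5hi. Ratios below 0 thus stand for a higher level in PRMT5hi cells. Which deposited column is which population came with the rule that chose the members, and the study's figure legend gives the same direction. The study's methods text gives the signs the other way, and with that reading every direction below would be turned. The SE of an sgRNA's ratio comes from the authors' variances of its share of reads over the libraries. Because the replicates came from a single transduction, the p-values reflect no more than how cultures of those cells vary. An exact test over libraries could not be run on these summaries. For single sgRNAs p is that of the two-sided beta-binomial test of the authors' software, and for genes Fisher's method joined the one-sided p-values over its 7 sgRNAs, which share a target and are not replicates (Fisher p). Total depth was 16166859 reads for PRMT5hi and 19117396 for PRMT5lo, as worked out from sgRNAs whose variance was that of read counting alone. The sgRNA sequences and their cut sites were not analysed here, so cutting at a paralog was not checked.

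The kinases differ in wiring. CaMKII, built from the products of *CAMK2A*, *CAMK2B*, *CAMK2D* and *CAMK2G*, forms large ring-shaped holoenzymes that stay active after the calcium signal by phosphorylating themselves. CaM kinase kinases, from *CAMKK1* and *CAMKK2*, phosphorylate CaM kinase I, CaM kinase IV and, for *CAMKK2*, the energy sensor AMPK. Death-associated kinases act in apoptosis, autophagy and actomyosin contraction, and their relatives STK17A and STK17B, also called DRAK1 and DRAK2, have a similar catalytic domain. DCLK1 is a kinase fused to microtubule-binding doublecortin domains, and PHKG1 and PHKG2 are the catalytic subunits of phosphorylase kinase, which turns on glycogen breakdown in muscle and in liver. *STK17A* is also among the candidate PRMT5 target genes that the study knocked out one by one to test sensitivity to carboplatin, as is *HDAC4*, named below. Of these the study reported partial sensitization for *RCL1* and *TXNL4B* only. That test concerns genes downstream of PRMT5, whereas the screen asks what sets the PRMT5 level.

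No gene of the 16 passed the study's limits in either direction. These were taken from its figure legend, a Fisher p under 0.01 together with a mean log2 ratio more than 0.25 from 0. In the whole library 0.845% of genes passed toward PRMT5hi and 0.704% toward PRMT5lo. The study's methods text instead gives p under 0.001 toward PRMT5lo, which 0 members and 2 of 1420 genes passed together with the ratio limit. The lowest adjusted p of a member was 0.373 toward PRMT5hi and 0.772 toward PRMT5lo (Fisher's method, Benjamini-Hochberg over 1420 genes). At an unadjusted one-sided p under 0.05, 5 members (31.2%) leaned toward PRMT5hi, against 9.3% of all genes, and 0 toward PRMT5lo, against 8.59%. These 5 were *CAMK2A*, *CAMK2B*, *CAMK1D*, *DAPK3* and *PHKG2*. With 1 sgRNA left out in turn, the highest Fisher p of each was above 0.05, from 0.0902 for *CAMK1D* to 0.491 for *PHKG2*. The lowest ran from 0.00446 for *CAMK2B* to 0.0121 for *DAPK3*. Leaving out the sgRNA with the lowest p tends to raise that of any gene, and the share of all genes that rise above 0.05 is not given here. With limma, which takes the spread between the sgRNAs of a gene in place of the spread between libraries, 0 members were under 0.05 toward PRMT5hi, against 6.2% of all genes, and 1 of 16, *DCLK3*, toward PRMT5lo, against 5.85%.

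The gene means of the 16 kinases ran from -0.13 for *CAMK2A* to 0.22 for *DCLK3*, and none lay beyond 0.25, which 4.58% of all genes did. Their median was -0.023, against -0.0033 for all genes, and 11 (68.8%) were below 0, against 51.5% of all genes. In order from PRMT5hi to PRMT5lo, *CAMK2A* was followed by *PHKG2*, *CAMK2D*, *CAMK2B*, *DAPK1*, *DAPK3*, *CAMK1D*, *CAMKK2*, *DCLK1*, *CAMK2G*, *PHKG1*, *STK17A*, *DAPK2*, *CAMKK1*, *STK17B* and *DCLK3*. The widest gap between neighbours in this order was 0.088 between *STK17B* and *DCLK3*, with an SE of 0.16 that leaves out the spread between sgRNAs. Because the genes were sorted by these means, neighbours lie close by construction, and genes farther apart were not compared. Each of the 16 genes had sgRNAs on both sides of 0. The share of all genes for which this holds is not given here, and 50.2% of all targeting sgRNAs were below 0.

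Among single sgRNAs, 8 of 112 differed between the populations at a two-sided p under 0.05, and all 8 were more abundant in PRMT5hi cells. This is 7.14%, against 3.32% of all targeting sgRNAs and 3.4% of control sgRNAs in that direction. Toward PRMT5lo 0 members differed, against 3.2% of targeting and 5.2% of control sgRNAs. The lowest adjusted p of a member was 0.110 over all 10429 sgRNAs, so none passed adjustment at 0.05, which 0.0479% of all sgRNAs did. Of the 8 sgRNAs, 7 had in at least 1 population a variance of read counting alone, the smallest that CB2, the authors' software, can give. Of all 112 member sgRNAs, 33.9% did, against 2680 of 9929 targeting and 153 of 500 control sgRNAs. With each variance raised to the trend at its abundance where that was larger, which can only shrink the test statistic, 0 of the 8 were under 0.05. Their p-values by the same test with these variances ran from 0.0506 for CAMK2A_1 and 0.0523 for PHKG2_2 to 0.499 for CAMK1D_4. The share of all sgRNAs under 0.05 with these variances is not given here. Ratios beyond 0.25 were found for 15 member sgRNAs (13.4%) toward PRMT5hi and 18 (16.1%) toward PRMT5lo, against 18% and 17% of targeting sgRNAs.

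All 4 CaMKII genes had a mean below 0, that is toward PRMT5hi, but none passed the study's limits. *CAMK2A*, which encodes the alpha subunit found mostly in brain, had a mean of -0.13 (SD 0.33 over sgRNAs, Fisher p = 0.0162, adjusted p = 0.417). A pair of its sgRNAs set this mean. CAMK2A_4 stood at 63.8 CPM in PRMT5hi and 40.3 CPM in PRMT5lo, 1.57-fold higher in PRMT5hi (log2 ratio -0.65, SE 0.15, beta-binomial p = 0.00261, adjusted p = 0.256), and it was the only one of the 8 sgRNAs not at the smallest variance. CAMK2A_1 stood at 131 CPM and 91.1 CPM (log2 ratio -0.52, SE 0.14, beta-binomial p = 0.0439). The other 5 ran from -0.054 to 0.22, the highest being CAMK2A_5 (SE 0.19). Without CAMK2A_4 the gene's mean was -0.042 and its p 0.283.

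*CAMK2B*, the beta subunit that binds actin filaments, had the lowest p of the members toward PRMT5hi, 0.00998, which ranked 38 among the 1420 genes (adjusted p = 0.373). That p is under the study's 0.01, but its mean of -0.089 (SD 0.28) was short of the 0.25 limit. The median of its sgRNAs was 0.010, the ratio of CAMK2B_5 in CPM. In the shares of reads that the tests use, the log2 ratio of CAMK2B_5 was -0.035, on the same side of 0 as the mean. The p rested on CAMK2B_1, at 162 CPM in PRMT5hi and 134 CPM in PRMT5lo, a 1.20-fold difference with an SE of 0.040 because both variances were the smallest possible (log2 ratio -0.27, beta-binomial p = 0.000391, adjusted p = 0.110). Without it the gene's p was 0.440. The lowest ratio, -0.55 (SE 0.27), came from CAMK2B_4, which was at 46.9 CPM in PRMT5hi and 31.6 CPM in PRMT5lo and did not pass (beta-binomial p = 0.156). The highest was 0.26 (SE 0.33) for CAMK2B_2.

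*CAMK2D*, the delta subunit that is abundant in heart and widely expressed, had the most uniform sgRNAs of the CaMKII genes. Of its 7, 6 were below 0, with a mean of -0.11 (SD 0.15, Fisher p = 0.228, adjusted p = 0.807). The lowest was CAMK2D_6 at 68.1 CPM in PRMT5hi and 54.1 CPM in PRMT5lo (log2 ratio -0.32, SE 0.33) and the highest CAMK2D_5 with 0.16 (SE 0.14). *CAMK2G*, the gamma subunit, was near 0 with a mean of -0.0080 (SD 0.27), between -0.39 (SE 0.23) for CAMK2G_5 and 0.31 (SE 0.43) for CAMK2G_1. Over the 28 CaMKII sgRNAs, 18 (64.3%) were below 0 against 50.2% of targeting sgRNAs, and the median was -0.064 against -0.0018. In GRCh38.p14, *CAMK2A* lies on chromosome 5 from 150219491 to 150290130, *CAMK2B* on chromosome 7 from 44217154 to 44326013, *CAMK2D* on chromosome 4 from 113451032 to 113761738 and *CAMK2G* on chromosome 10 from 73812501 to 73874555.

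The CaM kinase kinases and CaM kinase I did not lean one way together. *CAMK1D*, a CaM kinase I that CaM kinase kinases activate, had 6 of 7 sgRNAs below 0 and a mean of -0.068 (SD 0.24, Fisher p = 0.0131, adjusted p = 0.401). Those 6 averaged -0.15, while CAMK1D_5 stood at 29.9 CPM in PRMT5hi and 41.3 CPM in PRMT5lo (log2 ratio 0.45, SE 0.20, beta-binomial p = 0.0883). CAMK1D_3 was at 138 CPM and 116 CPM (log2 ratio -0.24, SE 0.077, beta-binomial p = 0.0308). CAMK1D_4 was at 66.7 CPM and 59.8 CPM, a 1.11-fold difference that passed with both variances at their smallest (log2 ratio -0.15, SE 0.062, beta-binomial p = 0.0188). These were the smallest differences of the 8.

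*CAMKK1* had 5 of 7 sgRNAs above 0 and a mean of 0.10 (SD 0.20), from -0.20 (SE 0.16) for CAMKK1_4 to 0.33 (SE 0.35) for CAMKK1_5, which was at 106 CPM in PRMT5hi and 133 CPM in PRMT5lo. Its p toward PRMT5lo was 0.234. *CAMKK2*, the kinase upstream of AMPK, had a mean of -0.028 (SD 0.26), and its sgRNAs split 4 to 3 around 0, from -0.28 (SE 0.26) for CAMKK2_4 to 0.27 (SE 0.24) for CAMKK2_6. The one-sided p was 0.277 toward PRMT5hi and 0.344 toward PRMT5lo. *CAMK1D* lies on chromosome 10 from 12349547 to 12835545, *CAMKK1* on chromosome 17 from 3860315 to 3893053 and *CAMKK2* on chromosome 12 from 121237692 to 121297819.

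Among the death-associated kinases, the sgRNAs against *DAPK3* stood out by how much they disagreed. DAPK3, also called ZIPK, phosphorylates myosin light chains. DAPK3_3 stood at 70.4 CPM in PRMT5hi and 38.3 CPM in PRMT5lo, 1.82-fold higher in PRMT5hi, the most negative ratio of all 112 sgRNAs (log2 ratio -0.86, SE 0.25, beta-binomial p = 0.0736). Opposite to it, DAPK3_2 stood at 53.5 CPM and 81.9 CPM, 1.52-fold higher in PRMT5lo (log2 ratio 0.61, SE 0.33, beta-binomial p = 0.131). DAPK3_5, at 83.4 CPM and 63.9 CPM, passed alone (log2 ratio -0.38, SE 0.11, beta-binomial p = 0.0183). Its remaining sgRNAs, listed after their values were seen, were DAPK3_4 with -0.25 and DAPK3_6 with -0.21 on the PRMT5hi side, and DAPK3_1 with 0.23 and DAPK3_7 with 0.34 on the PRMT5lo side. The SD of 0.50 over its sgRNAs was 2.25 times the typical SE of one of them, a ratio that ranked 3 among the 1420 genes.

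The mean of *DAPK3* was -0.075, and without DAPK3_3 it was 0.056. Combined without regard to direction, its sgRNAs gave a two-sided Fisher p of 0.00803 (adjusted p = 0.224), a level under 0.01 that 3.94% of all genes and 1 of the 16 members reached. In the PRMT5hi direction the p was 0.0278 (adjusted p = 0.469) and in the PRMT5lo direction 0.380. *DAPK3* lies on chromosome 19 from 3958453 to 3971099.

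*DAPK1*, a calmodulin-regulated tumor suppressor kinase, had 5 of 7 sgRNAs below 0 and a mean of -0.080 (SD 0.21, Fisher p = 0.131). DAPK1_3 passed alone at 80.3 CPM in PRMT5hi and 65.9 CPM in PRMT5lo (log2 ratio -0.28, SE 0.098, beta-binomial p = 0.0398). The lowest ratio, -0.30 (SE 0.18), came from DAPK1_2 and the highest, 0.21 (SE 0.21), from DAPK1_7. *DAPK2*, a smaller calmodulin-dependent member, had 5 of 7 above 0 and a mean of 0.088 (SD 0.20, Fisher p toward PRMT5lo = 0.337). Its sgRNAs ran from -0.20 (SE 0.13) for DAPK2_7 to 0.37 (SE 0.39) for DAPK2_4, and they included the least abundant of all 112, at 14.8 CPM in PRMT5hi and 15.0 CPM in PRMT5lo. *DAPK1* lies on chromosome 9 from 87497228 to 87708634 and *DAPK2* on chromosome 15 from 63907036 to 64046485.

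The sgRNAs against *STK17A* did not separate the populations. STK17A_4, the highest, stood at 67.1 CPM in PRMT5hi and 88.6 CPM in PRMT5lo (log2 ratio 0.40, SE 0.19, beta-binomial p = 0.0895). STK17A_3 was at 113 CPM and 129 CPM (log2 ratio 0.18, SE 0.23). STK17A_2 was at 89.4 CPM and 96.2 CPM (log2 ratio 0.10, SE 0.27). These 3 and STK17A_7 were higher in PRMT5lo cells, by less than 3 SE each.

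STK17A_7 was at 169 CPM in PRMT5hi and 179 CPM in PRMT5lo, with both variances at their smallest (log2 ratio 0.076, SE 0.037, beta-binomial p = 0.104). STK17A_6 stood at 106 CPM in both populations (log2 ratio -0.0028, SE 0.26). STK17A_1 with -0.13 (SE 0.25) and STK17A_5 with -0.19 (SE 0.31) lay toward PRMT5hi, the latter at 104 CPM and 91.4 CPM. The gene's mean was 0.063 (SD 0.20), a 1.04-fold higher abundance in PRMT5lo, with a one-sided p of 0.141 toward PRMT5lo (adjusted p = 0.782) and 0.885 toward PRMT5hi. With each sgRNA left out in turn the mean stayed between 0.0077 and 0.10.

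*STK17B*, its paralog, had a larger mean of 0.13 (SD 0.28), with a one-sided p of 0.163 toward PRMT5lo (adjusted p = 0.782). STK17B_7 stood at 74.3 CPM in PRMT5hi and 112 CPM in PRMT5lo (log2 ratio 0.58, SE 0.24, beta-binomial p = 0.0593), and the lowest was STK17B_2 with -0.22 (SE 0.20). *STK17A* lies on chromosome 7 from 43583108 to 43627379 and *STK17B* on chromosome 2 from 196133583 to 196176483.

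*DCLK3* had the largest mean of the 16 genes, 0.22 (SD 0.28), a 1.16-fold higher abundance in PRMT5lo that fell short of the 0.25 limit. The Fisher p toward PRMT5lo was 0.119 (adjusted p = 0.772). With limma, which treats the sgRNAs of a gene as replicates though they share a target, p toward PRMT5lo was 0.0236 before adjustment. In that direction 5.85% of all genes were under 0.05 with limma. Of the *DCLK3* sgRNAs, 5 of 7 were above 0, and 3 were beyond 0.25. DCLK3_3 stood at 35.7 CPM in PRMT5hi and 55.0 CPM in PRMT5lo, 1.52-fold higher in PRMT5lo and the highest ratio of all 112 sgRNAs (log2 ratio 0.61, SE 0.33, beta-binomial p = 0.0883). The lowest, DCLK3_4, had a ratio of -0.11 (SE 0.29). Leaving out any 1 sgRNA put the mean between 0.15 and 0.27. *DCLK1*, the doublecortin-like kinase also used as a tuft cell marker, had a mean of -0.017 (SD 0.17), between -0.37 (SE 0.25) for DCLK1_5 and 0.19 (SE 0.14) for DCLK1_2. *DCLK1* lies on chromosome 13 from 35768652 to 36131939 and *DCLK3* on chromosome 3 from 36712421 to 36764553.

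The catalytic subunits of phosphorylase kinase differed in spread. *PHKG2*, the form found in liver, had a mean of -0.11 (SD 0.38, Fisher p = 0.0187, adjusted p = 0.417), and 1 sgRNA carried it. PHKG2_2 stood at 76.8 CPM in PRMT5hi and 44.0 CPM in PRMT5lo, 1.73-fold higher in PRMT5hi (log2 ratio -0.79, SE 0.13, beta-binomial p = 0.000800, adjusted p = 0.152), with the smallest possible variance in PRMT5hi. On the opposite side PHKG2_5 stood at 90.8 CPM and 124 CPM (log2 ratio 0.45, SE 0.28, beta-binomial p = 0.133). Without PHKG2_2 the mean was -0.0020 and the p 0.491. *PHKG1*, the muscle form, had the least spread of the 16, with a mean of -0.0032 (SD 0.13) between -0.17 (SE 0.18) for PHKG1_4 and 0.22 (SE 0.43) for PHKG1_3. PHKG1_4 was also the most abundant of all 112 sgRNAs, at 273 CPM in PRMT5hi and 242 CPM in PRMT5lo. *PHKG1* lies on chromosome 7 from 56080295 to 56092952 and *PHKG2* on chromosome 16 from 30748425 to 30761176.

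Abundance varied far more between the sgRNAs than between the populations. CPM of the 112 sgRNAs ran from 14.8 to 273 in PRMT5hi, with a median of 92.2, and from 15.0 to 242 in PRMT5lo, with a median of 96.0. Over both populations log2(CPM + 1) averaged 6.49 (SD 0.79), against 6.31 (SD 0.93) for targeting and 6.87 (SD 0.75) for control sgRNAs. By gene it was highest for *PHKG1*, which ranked 57 among the 1420 genes, followed by *CAMK2D* with 6.92 and *PHKG2* with 6.88, and lowest for *CAMK2B* with 6.03. The SD of the log2 ratio was 0.35 in the least abundant 38 sgRNAs and 0.18 in the most abundant 38. The size of the ratio and abundance had a Pearson r of -0.27 (Spearman rho -0.27) across the 112 sgRNAs, which share their libraries and depth. The SE of the ratio had a median of 0.23, while the counting error alone had a median of 0.050 at 239 to 4411 reads per sgRNA in PRMT5hi and 287 to 4625 in PRMT5lo. Reads were amplified by PCR without molecular identifiers, so the error of counting molecules may be larger.

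Of 15 further calcium and calmodulin genes of the library, chosen by function, 0 passed the study's limits. These comprise the myosin light chain kinases *MYLK*, *MYLK2*, *MYLK3* and *MYLK4*, the calcineurin subunit *PPP3CA*, the nitric oxide synthases *NOS1*, *NOS2* and *NOS3*, the calmodulin-stimulated adenylyl cyclase *ADCY1*, the calcium release channels *RYR1* and *RYR3*, the AMPK subunits *PRKAA1* and *PRKAA2*, and *HDAC4* and *HDAC5*, which CaM kinases drive out of the nucleus. At an unadjusted one-sided p under 0.05, 2 of the 15 leaned toward PRMT5hi, against 9.3% of all genes, and 3 toward PRMT5lo, against 8.59%. The largest mean toward PRMT5hi was that of *MYLK2*, -0.435 (SD 0.58, Fisher p = 0.0242, adjusted p = 0.455), and toward PRMT5lo that of *HDAC4*, 0.18 (SD 0.19, Fisher p = 0.0144, adjusted p = 0.354). The catalytic subunits of AMPK, a substrate of CAMKK2, are named here after their values were seen and lay on opposite sides of 0. *PRKAA2* had the lowest Fisher p of the 15 toward PRMT5lo, 0.00612 (adjusted p = 0.299). Its mean was 0.062 (SD 0.23, SE from the libraries 0.091), with 5 of 7 sgRNAs above 0. *PRKAA1* had a Fisher p of 0.0150 toward PRMT5hi (adjusted p = 0.401). Its mean was -0.10 (SD 0.23, SE from the libraries 0.085), with 4 of 7 sgRNAs below 0. The median of the 15 means was 0.0042, against -0.0033 for all genes.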

How the data were processed

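CRISPR sgRNA abundance was measured in 4 PRMT5hi and 4 PRMT5lo libraries. Single-end reads were mapped by the authors to the sgRNA library and compared with CB2; neither its version nor the mapper is given in the sources used here, and FastQC and hg38 are named in the submitters' notes. The deposited CPM values are the authors' means over the 4 libraries of a population. The deposited fraction of each sgRNA is the authors' estimate of its share of reads, with a variance over libraries. Columns of the authors' own fold changes, scores and p-values, and their gene table, were not used.

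From these, each sgRNA was tested as in CB2 (difference of fractions over its standard error, Welch degrees of freedom), and Fisher's method combined one-sided p-values per gene, with Benjamini-Hochberg adjustment over 1420 genes or 10429 sgRNAs. A total of 2 sgRNAs had no reads and could not be tested. They entered the adjustment and the combined p-values of their genes as showing no difference. The call limits were those of the study's figure legend. SEs of log2 ratios came from the fractions and variances by error propagation. Depth averaged 4041715 reads per PRMT5hi and 4779349 per PRMT5lo library, and at that depth 100% of the totals of sgRNAs with counting variance were whole within 0.05 reads. Python 3.11.15, scipy 1.17.1, pandas 2.3.3 and limma 3.58.1 were used, and the scripts were tested on simulated data.

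All 16 genes are named and were matched by symbol to RefSeq (GRCh38.p14). Single sgRNAs are described where p was under 0.05, at the extremes of their gene, or for *STK17A*, and related genes where called or largest. Alternatives were pseudocounts of 5 and 10 CPM, a minimum of 20 CPM with at least 3 sgRNAs, centring on control sgRNAs, medians, Stouffer's method, limma on sgRNA ratios, each sgRNA left out, variances raised to their trend over 20 abundance bins, stricter p limits of 0.001 and adjustment at 0.05. The members and lists were chosen with earlier results of these data known.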

Additional observations from a re-analysis of the deposited data

How the results depend on the processing

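No member gene was called in either direction under any alternative run. The 5 members with a one-sided p under 0.05 toward PRMT5hi became 2 with Stouffer's method, 0 with limma and 0 with variances raised to the abundance trend, and numbered 5 with sgRNAs of at least 20 CPM only. Over all 1420 genes the count of 132 became 97, 88 and 29, and 136 of 1415 with the CPM minimum. Toward PRMT5lo the members' count of 0 became 1 with limma, which had 83 of all genes there. The 8 sgRNAs toward PRMT5hi became 0 with variances raised to the trend, which by construction can only shrink the test statistic, and 0 after adjustment over all sgRNAs. For the raised variances the count over all sgRNAs is not given here, so this 0 has no background beside it.

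With the median over sgRNAs in place of the mean, *CAMK2B* (0.010) and *DCLK1* (0.016) changed sign. For *CAMK2B* this rests on CPM, because the sgRNA at its median, CAMK2B_5, had a log2 ratio of -0.035 in shares of reads. With each sgRNA left out in turn, means that crossed 0 ran from -0.061 to 0.056 for *CAMK2G*, from -0.078 to 0.015 for *CAMKK2*, from -0.19 to 0.056 for *DAPK3*, from -0.052 to 0.041 for *DCLK1* and from -0.040 to 0.025 for *PHKG1*. Of 192 recomputed gene means, 178 kept their sign. All changes of sign came with the median or with an sgRNA left out. The pseudocounts, the CPM minimum and the centring, which move the means little, changed none. The mean of *DCLK3* passed 0.25 without DCLK3_1 (0.27), DCLK3_4 (0.27) or DCLK3_5 (0.251), with Fisher p-values that stayed over 0.01.

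No paired analysis was possible because the deposited columns hold a single value per population and no replicate. No library could be left out for the same reason, so a difference carried by 1 library cannot be seen. The SE of a gene's mean limits what the screen could show, and a mean within 0.25 does not show that a kinase has no effect on PRMT5.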
